A study of Drosophila melanogaster with 35 samples.

Results

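The transcripts described here come from 4 Drosophila genes that encode heterogeneous nuclear ribonucleoproteins (hnRNPs) or splicing regulators, sqd, ps, Hrb98DE and Hrb27C. They were selected on the presence of CLAMP iCLIP peaks in their transcripts, with earlier results of these data known. Among 13986 annotated protein-coding genes, 570 had at least 1 peak on their own strand in the 5 peak lists analysed. The 4 genes held 15 of the 3235 peaks in those lists, and 8 of the 15 remain when sqd is left out. Because presence of a peak chose the genes, the numbers of peaks below are descriptions without a test.

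The study used individual-nucleotide crosslinking and immunoprecipitation (iCLIP), in which ultraviolet light links a protein to RNA and the RNA recovered with an antibody is sequenced. The protein is CLAMP, a zinc-finger factor that recognises GA repeats in DNA and has a role in dosage compensation of the X chromosome. The question is which RNAs it contacts in male and female cells. The 35 libraries came from S2, a male line of embryonic origin, and Kc, a female one, each split into chromatin, nucleoplasm and cytoplasm after irradiation at 254 nm.

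CLAMP antibody was used in 24 libraries, 4 in each line and fraction. No antibody was added to the other 11, of which Kc chromatin has 1 and every other combination of line and fraction 2. Both kinds were irradiated. Neither line carries a named mutation or transgene in the labels, and each line stands for its sex alone, so sex and cell line cannot be told apart. Peak lists were analysed for both fractions of the nucleus, with 1416 peaks for chromatin and 391 for nucleoplasm in S2, and 874 and 546 in Kc. The list of Kc cytoplasm held 8 peaks, and S2 cytoplasm was not analysed here. The lists give positions and no read counts, so depth is unknown, expression of marker genes of the lines could not be checked, and no background from the libraries without antibody was set beside a peak. Each line and fraction has 1 list with no replicate, so differences between lists were not tested.

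An hnRNP coats nascent RNA and takes part in splice site choice, export, localisation and translation of messages. Splicing regulators of the SR and KH-domain families bind short motifs in pre-mRNA and promote or block use of nearby exons. Genes of both families are themselves spliced in several ways and often end in alternative last exons, so that 1 stretch of sequence can be 3′ UTR in one message and intron in another. A peak in such a stretch is called isoform-dependent below when its midpoint is exonic in some but not all coding isoforms of the gene.

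S2 chromatin held peaks in all 4 genes and Kc chromatin in 3 of them, sqd, ps and Hrb98DE. By the same count, 3.22% of all protein-coding genes had a peak in S2 chromatin (451 of 13986) and 0.708% in Kc chromatin (99 of 13986). In Kc nucleoplasm sqd alone of the 4 had a peak, where 0.508% of protein-coding genes had one. In S2 nucleoplasm, where 0.122% of protein-coding genes had one, and in Kc cytoplasm none of the 4 did. Nothing is read from these counts, since peaks chose the genes. The number of peaks per list was 1, 5 and 1 in sqd (S2 chromatin, Kc chromatin and Kc nucleoplasm), 1 and 1 in ps and 2 and 3 in Hrb98DE (S2 and Kc chromatin for both), and 1 in Hrb27C (S2 chromatin).

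**Figure D1:**
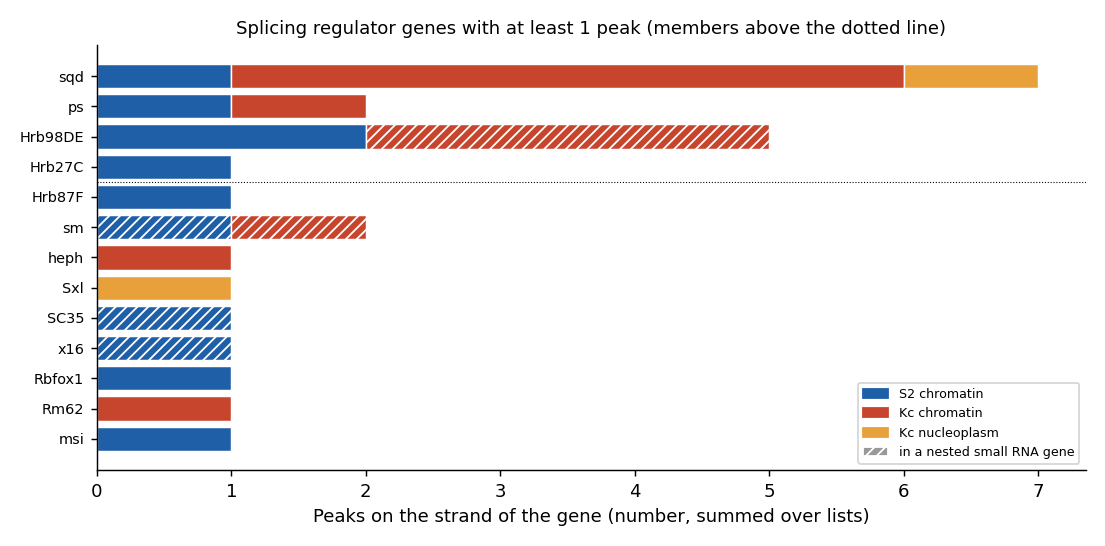
Number of peaks on the strand of each gene (horizontal axis, summed over lists) for the 13 genes of the splicing regulator list with a peak, the 4 described here above the dotted line. Colours mark the list and hatching marks peaks inside a small RNA gene nested in the host gene; sqd has 7 peaks, 5 of them in Kc chromatin, and the 3 Kc chromatin peaks of Hrb98DE are hatched.

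In sqd every peak fell in the 3′ UTR of 1 isoform, which is intron in the rest. The gene squid encodes an hnRNP known for localising gurken mRNA in the oocyte, and alternative splicing gives Sqd proteins that differ at the C terminus. It lies on the minus strand of chromosome 3R from 13634862 to 13646304 (dm6) and has 5 annotated coding isoforms. In sqd-RA the last exon runs on into a 3′ UTR of 4471 nt (3R 13637718 to 13642188), which is 39.1% of the gene's length and longer than the 3′ UTRs of 99.2% of coding isoforms in the annotation. In sqd-RB and sqd-RD the same stretch is inside an intron of 5220 nt, and in sqd-RC and sqd-RE inside one of 5773 nt. The 3′ UTRs used by those 4 isoforms, which lie farther downstream, held 0 of the 7 peaks.

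In S2 chromatin the sqd peak was at 3R 13640125 to 13640147 and 23 nt wide, 2042 nt past the stop codon of sqd-RA. In Kc chromatin the 5 peaks, in the order of transcription, began 1565, 2633, 2762, 2956 and 4344 nt past that stop codon and were 41, 36, 35, 35 and 40 nt wide. The last of them, at 3R 13637806 to 13637845, ended 88 nt before the annotated end of sqd-RA. Together they spanned 2819 nt, with the middle 3 separated by gaps of 93 and 159 nt. The Kc nucleoplasm peak, at 3R 13641619 to 13641668, was 50 nt wide and the nearest of the 7 to the stop codon, at 521 nt. No sqd peak of one list overlapped that of another, and the smallest gap between lists was 436 nt, between the S2 chromatin peak and the Kc chromatin peak that starts at 13640584. Thus the S2 chromatin peak sat inside the span of the Kc chromatin peaks but at a position of its own.

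**Figure D2:**
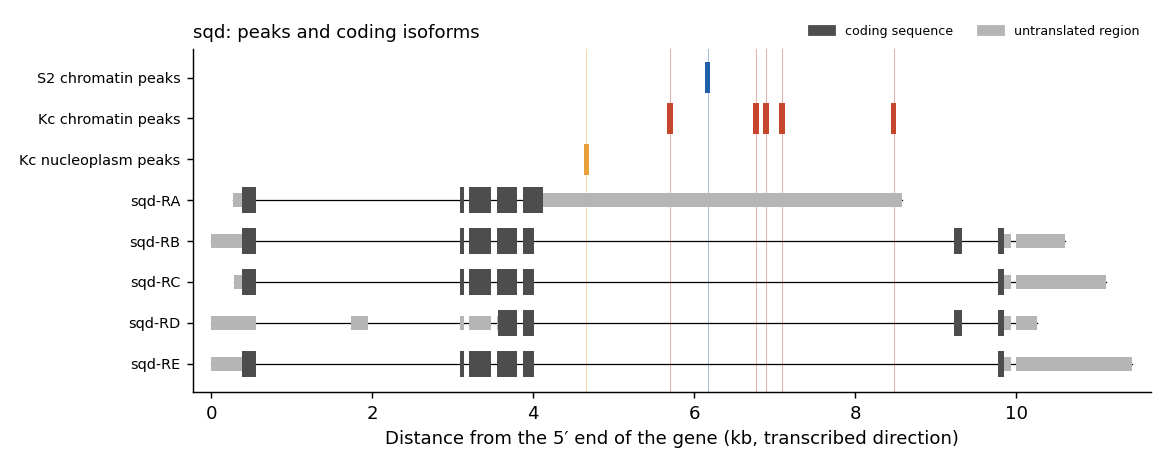
Map of sqd in the direction of transcription, with distance from the gene's 5′ end in kb on the horizontal axis, the peaks of each list on the top 3 lines and the 5 coding isoforms below. All 7 peaks stand over the grey 3′ UTR of sqd-RA and over the thin intron line of the 4 others; peak boxes are drawn wider than to scale so that they can be seen.

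Within the Kc chromatin list sqd had as many peaks as any protein-coding gene. Its 5 peaks were matched by RpS5a, a ribosomal protein gene, among 99 coding genes with a peak. Leaving out peaks inside nested small RNA genes, sqd kept 5 and each of the other 71 coding genes had 1 or 2. In S2 chromatin sqd was 1 of 386 coding genes with 1 peak. From position alone, a message ending in the sqd-RA 3′ UTR and unspliced RNA of the other isoforms cannot be told apart.

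The gene ps had 1 peak in each chromatin list, at different positions in its alternative 3′ region. Pasilla is the fly relative of the mammalian NOVA proteins, KH-domain regulators of alternative exons. It lies on the plus strand of 3R from 9417940 to 9455500 and has 18 annotated coding isoforms. The S2 chromatin peak at 9449307 to 9449345 (39 nt) was in the 3′ UTR of 5 isoforms, ps-RB, RI, RK, RN and RS. The other 13 end 658 nt upstream of it. For ps-RB and ps-RI the peak lay 123 nt before the annotated end, whereas for the other isoforms that hold it 6155 nt of 3′ UTR follow.

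In Kc chromatin the ps peak at 9446787 to 9446836 (50 nt) began 261 nt past the stop codon of ps-RB and ps-RI, in their 3′ UTR. For the other 16 isoforms this position is inside an intron of 1131 nt (3R 9446498 to 9447628) before the last coding exon. The gap between the S2 and the Kc peak was 2470 nt. Of the 18 isoforms annotated, ps-RB and ps-RI hold both peaks in an exon.

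For Hrb27C the lists held 1 peak, in S2 chromatin. The gene encodes an hnRNP that acts with Sqd in gurken mRNA localisation and takes part in repression of P-element splicing in somatic cells. It lies on the plus strand of 2L from 6920704 to 6932057, with 8 coding isoforms. The peak, at 2L 6926892 to 6926936, was 45 nt wide, the widest of the 5 S2 chromatin peaks in these genes. It lay 1437 nt past the stop codon, in the 3′ UTR of Hrb27C-RF and Hrb27C-RH, which are 3220 and 6602 nt long. In Hrb27C-RB it is in an intron of 2416 nt within the 3′ UTR. The remaining 5 isoforms end upstream of the peak, 2 of them by 86 nt and 3 by 846 nt.

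**Figure D3:**
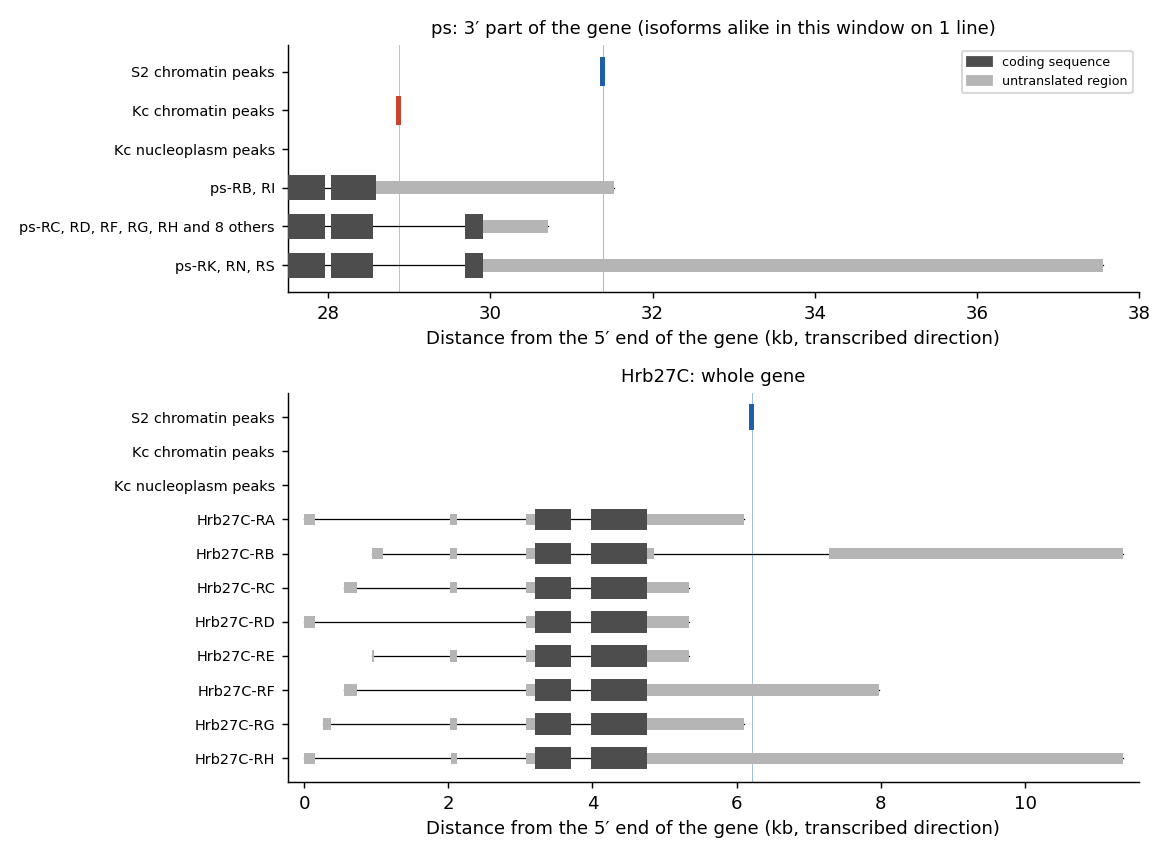
Maps of the 3′ part of ps (top) and of the whole of Hrb27C (bottom), with distance from each gene's 5′ end in kb in the direction of transcription, peaks by list above and isoforms below. The ps peak of S2 chromatin lies past the end of 13 isoforms and that of Kc chromatin in an intron of 16, and the Hrb27C peak lies past the end of 5 isoforms.

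In Hrb98DE the peaks of the S2 and the Kc chromatin list fell in different parts of the gene. Its product is an hnRNP of the A/B type. The gene lies on the plus strand of 3R from 28599834 to 28605777, with 6 coding isoforms, and its introns hold 7 snoRNA genes on the same strand. By their names, these snoRNAs guide pseudouridylation of 28S rRNA. The S2 chromatin peaks were in annotated exons and the Kc chromatin peaks were inside intronic snoRNA genes.

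In S2 chromatin the first Hrb98DE peak, at 3R 28599956 to 28599987 (32 nt), began 4 nt after the first base of the start codon of Hrb98DE-RA and Hrb98DE-RE. It lay wholly in their first exon, of 166 nt, whose coding stretch is 48 nt long. The other 4 isoforms begin downstream of it, at 28600407. The second peak, at 28604881 to 28604910 (30 nt), was in the 3′ UTR of Hrb98DE-RA, RC and RE and ended 185 nt before their annotated end. It lay 122 nt past the end of Hrb98DE-RD and in an intron of 1763 nt in Hrb98DE-RB and RF. The isoforms that hold both peaks in exons are Hrb98DE-RA and Hrb98DE-RE.

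In Kc chromatin the 3 Hrb98DE peaks lay at 3R 28601771 to 28601809 (39 nt), 28602585 to 28602620 (36 nt) and 28603484 to 28603522 (39 nt). They fell inside snoRNA:Psi28S-3305a, snoRNA:Psi28S-3405d and snoRNA:Psi28S-3305c. All 6 isoforms have introns at these positions. The peaks began 73, 29 and 113 nt from the 5′ ends of the snoRNAs, which are 150, 140 and 152 nt long, and the third ended on the last base of its snoRNA. The 4 other snoRNA genes of the host, which include further copies of each kind, had 0 peaks in any list. The sources used here do not say how reads that match several copies were treated, so which copy carried the signal is uncertain, and position does not tell a snoRNA from the intron that holds it.

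**Figure D4:**
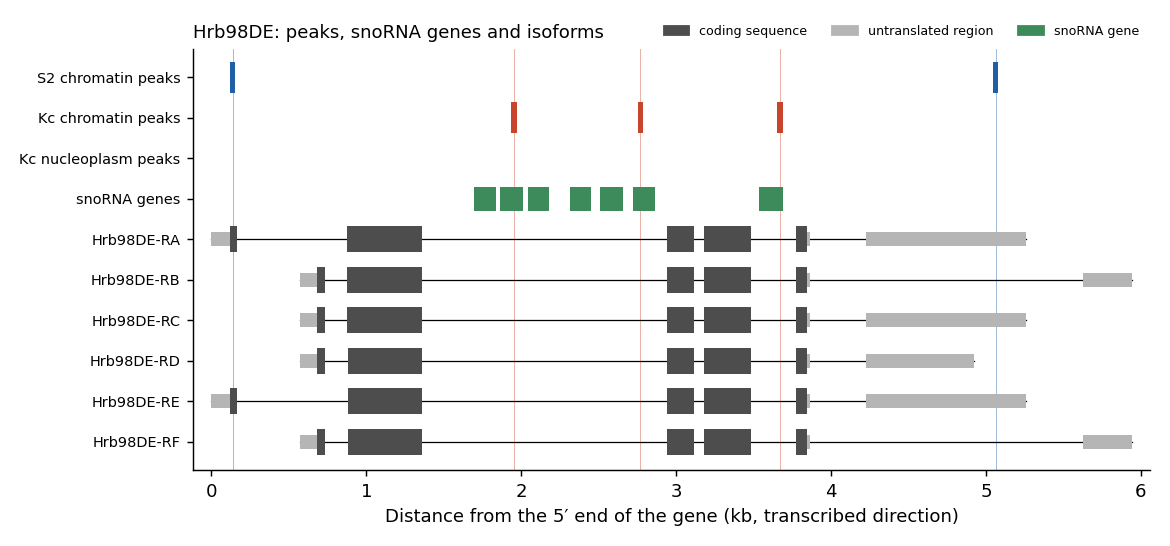
Map of Hrb98DE in the direction of transcription, with distance from the 5′ end in kb, peaks by list on the top lines, the 7 snoRNA genes in green and the 6 coding isoforms below. The 2 S2 chromatin peaks stand over the first exon of 2 isoforms and the 3′ UTR of 3, and the 3 Kc chromatin peaks stand over snoRNA genes.

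Peaks in nested small RNAs were common beyond Hrb98DE. All 3 intronic peaks of Hrb98DE in Kc chromatin were of this kind, as were 41 of 72 intronic Kc chromatin peaks of other coding genes (56.9%, Wilson 95% interval 45.4 to 67.7%). Intervals here and below cover counting error only and treat peaks as independent. Of 84 coding genes that host snoRNAs, 24 had a peak in a nested snoRNA in Kc chromatin and 13 in S2 chromatin, and Hrb98DE was 1 of 3 with at least 3 such snoRNAs in Kc. The 13 include nop5 and x16, which overlap and are both counted for the same peak in the same snoRNA. Exon peaks were found in 21 hosts in S2 chromatin and 2 in Kc chromatin. An exon peak in S2 chromatin together with a snoRNA peak in Kc chromatin was found in 9 hosts. In 6 of them, Hrb98DE, the ribosomal protein genes RpL4, RpL5, RpS7 and RpS20, and kra, the S2 chromatin list had peaks in exons alone and the Kc chromatin list in snoRNAs alone. The ribosomal protein genes RpL3 and RpS12 and the elongation factor gene eEF1alpha1 had snoRNA peaks in both lists. The reverse pairing, an exon peak in Kc chromatin with a snoRNA peak in S2 chromatin, was found in 1 host, pAbp. This gene also had exon peaks in S2 chromatin. Of the 84 hosts, 0 had exon peaks in Kc chromatin alone with snoRNA peaks in S2 chromatin alone. With 2 hosts that had an exon peak in Kc chromatin, the reverse could hold at most 2. Over all coding genes the S2 chromatin list held 408 exonic peaks and the Kc chromatin list 50, and the part of this in the split was not tested.

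By gene part, 11 of the 15 peaks were in 3′ UTRs, 1 was in coding sequence, 3 were intronic and 0 were in 5′ UTRs. In S2 chromatin 4 of 5 peaks were in 3′ UTRs, beside 159 of 523 peaks on other coding genes (30.4%, 26.6 to 34.5%). In Kc chromatin 6 of 9 were, beside 24 of 116 (20.7%, 14.3 to 28.9%). In Kc nucleoplasm the only peak was, beside 15 of 66 (22.7%, 14.3 to 34.2%). Of the 11, sqd gave 7, and peaks in 1 gene are not independent. Without sqd 4 of 8 peaks were in 3′ UTRs.

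All of these 3′ UTR stretches belong to some isoforms and not to others. All 12 exonic peaks of the 4 genes lay in stretches missing from some coding isoforms. Of the 12, 7 lay in the 3′ UTR of sqd-RA, so they are not independent. In S2 chromatin that was 5 of 5, beside 77 of 324 exonic peaks in other coding genes with at least 2 isoforms (23.8%, 19.5 to 28.7%). In Kc chromatin it was 6 of 6, of which sqd gave 5, beside 19 of 40 (47.5%, 32.9 to 62.5%). In Kc nucleoplasm it was 1 of 1, the sqd peak, beside 9 of 38 (23.7%, 13 to 39.2%). The 4 genes have more isoforms than most, with a median of 7 against 2 for all coding genes. Among other genes with at least 5 isoforms the share over all lists was 50 of 130 (38.5%, 30.5 to 47.0%). Of the 11 peaks in 3′ UTRs, 10 were intronic in at least 1 isoform, beside 14 of 171 in other genes with at least 2 isoforms (8.19%, 4.94 to 13.3%) and 12 of 60 in those with at least 5 (20%, 11.8 to 31.8%). Without sqd it was 3 of 4. Past the annotated end of a shorter isoform lay 3 of 4 in S2 chromatin, beside 47 of 132 in other genes with at least 2 isoforms (35.6%, 28.0 to 44.1%). In Kc chromatin it was 0 of 6, of which sqd gave 5, beside 16 of 23 (69.6%, 49.1 to 84.4%), and in Kc nucleoplasm 0 of 1 beside 3 of 14 (21.4%, 7.57 to 47.6%). These counts were not tested, because the genes were chosen with such results known.

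**Figure D5:**
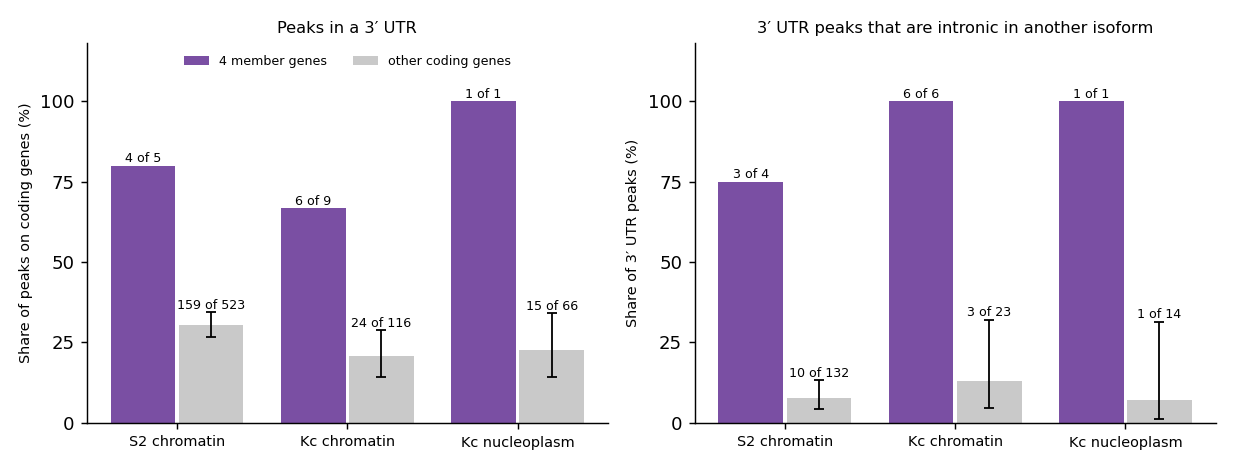
Share of peaks on coding genes that lie in a 3′ UTR (left) and share of 3′ UTR peaks that are intronic in another isoform, for genes with at least 2 isoforms (right), in percent by list. Purple bars are the 4 genes and grey bars the other coding genes with Wilson 95% intervals, with the counts printed above; in Kc chromatin 6 of 6 and 3 of 23 3′ UTR peaks were intronic in another isoform.

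The lists shared genes but no position on these transcripts. Of the coding genes with a peak in either chromatin list, 7.0% had one in both (36 of 514), among them sqd, ps and Hrb98DE. None of the 15 peaks overlapped a peak of another list, nor lay within 50 nt of one. On other coding genes 14 of 523 S2 chromatin peaks (2.68%, 1.60 to 4.44%) and 14 of 116 Kc chromatin peaks (12.1%, 7.33 to 19.2%) overlapped a peak of the other line. Outside nested small RNA genes these shares were 3 of 470 (0.638%) and 3 of 73 (4.11%). Between the Kc lists, 5 of 116 chromatin peaks (4.31%, 1.85 to 9.69%) and 5 of 66 nucleoplasm peaks (7.58%, 3.28 to 16.5%) on other coding genes overlapped. With 5 S2 chromatin, 9 Kc chromatin and 1 Kc nucleoplasm peaks in the 4 genes, nothing is read from the absence of an overlap.

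In the chromatin lists, median peak widths in the 4 genes were like those on coding genes. The 5 S2 chromatin peaks ranged from 23 to 45 nt with a median of 32 nt, beside a median of 32 nt on all coding genes. The 9 Kc chromatin peaks ranged from 35 to 50 nt with a median of 39 nt, beside 39 nt on all coding genes. The Kc nucleoplasm peak was 50 nt wide, beside a median of 33 nt. Of the 15 peaks, 14 were at least 30 nt wide, and the S2 chromatin peak of sqd was not. Counted by gene rather than by peak, 387 of the 570 coding genes with a peak kept one at that width.

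Beyond the 4 genes, the hnRNP and splicing regulator list held 47 others, of which 9 had a peak in any list. With the 4 included, S2 chromatin had a peak in 10 of 51 (19.6%), Kc chromatin in 6 (11.8%) and Kc nucleoplasm in 2 (3.92%). Of these, 4, 3 and 1 are the genes chosen for their peaks, so nothing is read from these percentages. Among the 47 alone the numbers were 6, 3 and 1, where 451, 99 and 71 of all 13986 coding genes had a peak. With peaks in nested small RNA genes left out they were 3, 2 and 1, beside 419, 72 and 63. The list itself was drawn up with earlier results of these data known. Genes of the list are long beside all coding genes, with a median of 5581 nt for the 47 against 2162.5 nt. The median was 7072 nt for the 570 coding genes with a peak in any list, and 11398.5 nt for the 4 genes. The part of length and of expression in these shares was not tested.

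Among those 9 genes Hrb87F also had a peak in an isoform-dependent 3′ UTR. It encodes an hnRNP of the A/B type, and its S2 chromatin peak at 3R 13657207 to 13657247 (41 nt) was in the 3′ UTR of Hrb87F-RE, 1 of 4 coding isoforms, and in an intron of another. Coding sequence common to every isoform held the peak of Rm62, a DEAD-box RNA helicase gene, in Kc chromatin (3R 6004097 to 6004146, 50 nt), and that of msi, the Musashi RNA-binding protein gene, in S2 chromatin (3R 25599589 to 25599651, 63 nt). Intronic peaks outside small RNAs were found in heph, the fly PTB gene, in Kc chromatin (3R 31956362 to 31956393), in Rbfox1 in S2 chromatin (3L 10575532 to 10575568), and in Sxl, the female-specific switch of sex determination, in Kc nucleoplasm (X 7096195 to 7096242).

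In the other 3 genes the peaks lay in small RNAs nested in introns, as in Hrb98DE. SC35 and x16, which encode SR proteins, had S2 chromatin peaks inside snoRNA:SC35-b and snoRNA:nop5-x16-a. This second snoRNA lies where x16 overlaps nop5 on the same strand, so its host cannot be told from position. The gene sm, which encodes a relative of hnRNP L, had the same peak, 2R 19564873 to 19564911, in S2 and Kc chromatin, and it fell in tRNA:Glu-TTC-1-3, with copies elsewhere that could share reads. With peaks in nested small RNAs left out, 10 of the 51 genes kept a peak in any list, beside 528 of all 13986 coding genes. The 10 are the 4 genes chosen for their peaks and 6 of the 47 others, so nothing is read from this share. Outside nested small RNAs, 9 listed genes had a peak in either chromatin list. Of these, sqd and ps had one in both, beside 19 of 472 coding genes (4.03%). Both were chosen for their peaks, so nothing is read from this.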

How the data were processed

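Peak lists of CLAMP iCLIP were analysed as the authors deposited them. Per the labels' protocols, peaks were called on the Galaxy CLIP-Explorer workflow. STAR 2.5.2b-2, cutadapt 3.5, UMI-tools and FastQC are named, with build dm6, per the submitters' processing notes. The sources used here do not name the peak caller or its threshold. The labels tie libraries to lists by name: all 4 CLAMP libraries for each list but Kc nucleoplasm, which 3 of 4 name. How libraries were combined, or those without antibody used, is not stated there. The deposited score was 0 in every peak and was not used. The Kc chromatin library without antibody is labelled with 2 lists, Kc chromatin and Kc nucleoplasm.

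Peaks were placed on the Ensembl release 115 annotation (dm6 coordinates, shown 1-based) with Python 3.11.15, numpy 2.4.6, scipy 1.17.1 and matplotlib 3.10.9. A peak belonged to every gene it overlapped by at least 1 nt on its own strand. Its part was read at the midpoint over all coding isoforms, in the order 5′ UTR, CDS, 3′ UTR, intron. Nested small RNAs were non-coding genes under 500 nt. Placement was tested on simulated peaks. Of 51 listed symbols, 50 matched directly and 1 by synonym (bl, as HnRNP-K).

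The genes, the regulator list and the alternatives were chosen with earlier results of these data known. Every gene of the list with a peak was named. No test was made, and sequence motifs were not analysed here.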

Additional observations from a re-analysis of the deposited data

How the results depend on the processing

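The 15 peaks on the 4 genes stayed 15 with at least 0.5 of a peak required within the gene, with strand ignored and with peaks within 10 nt merged, and numbered 14 at a width of at least 30 nt. Leaving out peaks in nested small RNA genes, an alternative chosen after the data were seen, gave 12, with 0 in place of 3 for Hrb98DE in Kc chromatin. At 30 nt or more sqd had 0 in place of 1 in S2 chromatin. The 11 peaks in 3′ UTRs numbered 10 on the longest coding isoform, where the ps peak of Kc chromatin is intronic, 10 at 30 nt or more and 11 under the other 3 settings. Peaks shared between lists numbered 0 under all 3 alternatives. Regulator genes with a peak numbered 13, 14 with strand ignored, where mub enters, and 10 without nested small RNAs. Protein-coding genes with a peak numbered 570, 387 at 30 nt or more and 528 without nested small RNAs. No paired analysis was possible because each line and fraction has 1 list with no replicate, and leaving out replicates was not possible for the same reason. With no counts, the depth behind a missing peak is unknown, so a gene without a peak is not shown to lack contact.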

Other observations

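Some of the regulator genes with peaks are neighbours on the chromosome. The genes x16 and Hrb27C lie 493 nt apart on 2L, on opposite strands, with no coding gene between them, and both had a peak in S2 chromatin, that of x16 inside snoRNA:nop5-x16-a and that of Hrb27C in the 3′ UTR. On 3R, sqd and Hrb87F lie on the same strand 10541 nt apart with 2 coding genes between them, and both had S2 chromatin peaks in a 3′ UTR that belongs to 1 isoform. Within 5000 nt of the 4 genes the lists held 2 further peaks, both from S2 chromatin: the x16 peak and one at 3R 9415872 to 9415927 on the strand of ps, inside alpha-Man-IIa. No peak lay on the opposite strand within any of the 4 genes. The gene mub, which encodes a poly(C)-binding protein, had no peak on its own strand in any list and 1 antisense peak in S2 chromatin.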
